A study of Mus musculus with 4 samples.

Results

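The EGF family was examined in 2 immune populations sorted from mouse wound beds. It was taken as 10 named genes, with no threshold on their values: the ligand genes Areg, Ereg, Hbegf, Tgfa, Btc, Egf, Epgn and Nrg1 and the receptor genes Egfr and Erbb2. They accounted for 10 of the 24358 genes and 11 of the 34535 transcripts in the table of expression values. One population was CD301b macrophages, macrophages that carry the C-type lectin CD301b, and the other was F4/80-negative cells, which lack the standard surface marker of mouse macrophages. Both were isolated by fluorescence-activated cell sorting from the dermis of wound beds on day 5 in 7-week-old male C57/Bl6 mice, with 2 libraries each and no other treatment or genotype named. Neither the other antibodies of the sort nor whether animals were pooled is given in the sources used here.

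Ligands of this family are made as precursors anchored in the cell membrane and are released by metalloproteases of the ADAM family. Released ligands bind EGFR or its relatives ERBB3 and ERBB4 on receiving cells, and ERBB2, which has no known ligand of its own, serves as partner receptor. In skin wounds this signalling drives keratinocytes to divide and migrate over the wound, and both epithelial and immune cells are known as sources of the ligands.

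What the ligands share is a short EGF-like stretch held by 6 cysteines. A search of the coding sequences (GENCODE M21 transcripts, build GRCm38) for cysteine codons at the family's spacing (7, then 4 or 5, then 10 to 13, then 1 and then 8 other codons between successive cysteines) found 1 such stretch in each of the 8 ligand transcripts of the table and none in the receptor transcripts. In Areg, Ereg, Hbegf, Tgfa, Btc and Epgn, 6 of the 8, the spacing was the same and the stretch was 36 codons long, whereas that of Egf had 37 codons and that of Nrg1 had 40. The stretches of Areg, Ereg and Nrg1, which with Hbegf were the ligand genes above 1 FPKM, are shown with that of Egf, the founding member, 5′ to 3′ on the coding strand, with the cysteine codons in capitals. Introns included, they lie at chr5:91143614-91144364 (Areg, plus strand), chr5:91088496-91089111 (Ereg, plus strand), chr8:31837698-31849398 (Nrg1, minus strand) and chr3:129686322-129690850 (Egf, minus strand) of GRCm38.
Areg: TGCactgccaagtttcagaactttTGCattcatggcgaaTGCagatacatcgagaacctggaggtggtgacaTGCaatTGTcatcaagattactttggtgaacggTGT
Ereg: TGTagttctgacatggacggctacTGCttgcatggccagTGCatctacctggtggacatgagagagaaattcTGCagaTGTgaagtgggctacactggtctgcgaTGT
Nrg1: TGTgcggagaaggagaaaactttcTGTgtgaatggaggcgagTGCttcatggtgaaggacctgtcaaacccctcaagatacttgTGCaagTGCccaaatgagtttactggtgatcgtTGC
Egf: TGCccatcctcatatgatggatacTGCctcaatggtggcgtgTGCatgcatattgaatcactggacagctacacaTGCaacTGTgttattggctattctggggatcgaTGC

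Expression was given as 1 FPKM (sequenced fragments counted per kilobase of transcript length and relative to all mapped fragments) per transcript and population, and the FPKM of a gene's transcripts were summed. The libraries of a population were not given apart, so no spread between replicates can be stated, and neighbours in an order of levels cannot be said to differ. Read counts were not given and the depth is unknown. Significance rests on Cuffdiff's p-values from the authors' deposited table, adjusted by Benjamini-Hochberg over all 16921 tested transcripts. A gene was called higher or lower at an adjusted p of at most 0.05 in at least 1 transcript, with none called in the other direction and the sum moving the same way. Whether the libraries came from separate animals is not stated, so the p-values may measure technical spread alone.

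No EGF family gene was called different between CD301b macrophages and F4/80-negative cells. Of the 10 genes, 6 had a tested transcript, and 0 of these 6 were called higher and 0 lower by Cuffdiff's p-values from the authors' deposited table, where 11.0% of all 13039 tested genes were called higher in CD301b macrophages and 6.20% lower. At an unadjusted p of 0.05, Areg and Egfr were lower and none was higher, that is 2 of 6, against 12.6% of all tested genes lower and 19.5% higher. Summed FPKM was lower in CD301b macrophages in 9 of the 10 genes, Nrg1 being the exception. The share was 44.7% of all tested genes, and 39.4% of all genes in the table, where genes at 0 in both populations count as not lower. The median difference over the 10 genes, 4 of them not tested, was -0.13 on the log2(FPKM + 1) scale. It was 0.05 over all tested genes and 0.0 over all genes in the table. That scale understates the change of low genes.

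**Figure D1:**
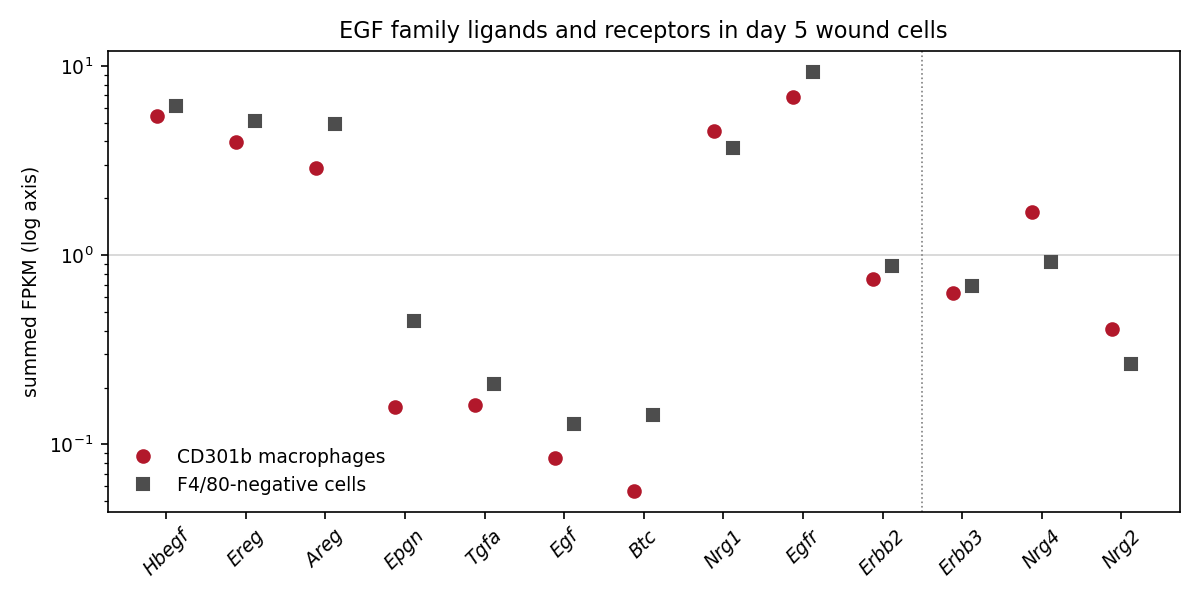
Summed FPKM (log axis) of the EGF family genes, with red circles for CD301b macrophages and grey squares for F4/80-negative cells, 1 value per population and no error. Left of the dotted line are the 10 family genes described, and right of it Erbb3, Nrg4 and Nrg2, which are relatives outside that set. Egfr was the most abundant in both populations (6.91 FPKM in CD301b macrophages and 9.35 FPKM in F4/80-negative cells), and Epgn, Tgfa, Egf and Btc lay below 1 FPKM in both.

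Among ligands of EGFR, Hbegf, Ereg and Areg held nearly all of the signal. The 7 ligands that bind EGFR (all but Nrg1) summed to 12.8 FPKM in CD301b macrophages and 17.2 FPKM in F4/80-negative cells, and Hbegf, Ereg and Areg made up 96.4% of the sum in CD301b macrophages and 94.6% in F4/80-negative cells. Per length, all 3 were below the median tested gene, which had 7.92 FPKM in CD301b macrophages and 7.47 FPKM in F4/80-negative cells.

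Areg encodes amphiregulin, a ligand known both as an autocrine factor of keratinocytes and as a product of regulatory T cells, innate lymphoid cells, mast cells and basophils. It had 2.88 FPKM in CD301b macrophages and 4.93 FPKM in F4/80-negative cells. The level in CD301b macrophages was thus the lower, by 1.71-fold, the largest difference among those of the 10 genes with a tested transcript. It did not pass the threshold (unadjusted p = 0.01365, adjusted p = 0.0779, Cuffdiff, from the authors' deposited table). For scale, 447 tested transcripts averaged 2 to 10 FPKM and were 1.5-fold to 2-fold lower in CD301b macrophages, and 34.5% of them were called in the authors' deposited table. Some of these belong to genes with several transcripts, unlike Areg, and the window was chosen after seeing the data. The share is thus not a call rate for a gene like Areg. Areg made up 22.6% of the summed EGFR ligands in CD301b macrophages and 28.7% in F4/80-negative cells.

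The promoter of human AREG is known to respond to cyclic AMP through a cyclic AMP response element (CRE). RefSeq promoter windows of build GRCm38.p6 (250 bases before to 50 after a gene's start) were matched for 7 of the 10 genes. They were searched on both strands for the CRE, TGACGTCA, the TATA box, TATAAA, and the AP-1 motif, TGANTCA, which do not overlap one another in the Areg window. Of all 32851 windows, 1.79% held the CRE, 13.6% the TATA box and 7.81% the AP-1 motif. Areg held 1 CRE, ending 54 bases before the start, and 1 TATA box, ending 26 bases before it. Epgn held 1 match to the TATA box letters, ending 81 bases before its start. No other match was found in the windows of Egf, Btc, Tgfa, Egfr, Erbb2, Epgn or Areg. The 150 bases before the Areg start, on the plus strand at chr5:91139449-91139598, are shown because Areg came nearest to the threshold, with the CRE and the TATA box in capitals. A match is a description of letters and not evidence of a factor's binding.
Areg promoter: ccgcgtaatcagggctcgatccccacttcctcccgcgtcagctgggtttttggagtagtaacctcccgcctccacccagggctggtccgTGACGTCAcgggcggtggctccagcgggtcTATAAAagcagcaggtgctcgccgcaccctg

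Ereg encodes epiregulin, a ligand of EGFR and ERBB4. It had 3.96 FPKM in CD301b macrophages and 5.15 FPKM in F4/80-negative cells, 1.30-fold lower in CD301b macrophages, which missed the threshold (adjusted p = 0.261, Cuffdiff, from the authors' deposited table). Hbegf encodes heparin-binding EGF-like growth factor, a ligand of EGFR and ERBB4 first isolated from macrophage-like cells and present in wound fluid. With 5.45 FPKM in CD301b macrophages and 6.15 FPKM in F4/80-negative cells it was the most abundant ligand gene in both, and the difference missed the threshold (adjusted p = 0.644, Cuffdiff, from the authors' deposited table). Areg stood at 0.529 times the Hbegf level in CD301b macrophages and at 0.802 times in F4/80-negative cells.

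The remaining ligands of EGFR were barely detected, and Cuffdiff tested none of them. Epgn, which encodes epigen, had 0.158 FPKM in CD301b macrophages and 0.447 FPKM in F4/80-negative cells. Tgfa, which encodes transforming growth factor alpha, an autocrine factor of keratinocytes, had 0.161 FPKM in CD301b macrophages and 0.208 FPKM in F4/80-negative cells. Btc, which encodes betacellulin, had 0.0568 FPKM in CD301b macrophages and 0.143 FPKM in F4/80-negative cells. Egf itself had 0.0851 FPKM in CD301b macrophages and 0.128 FPKM in F4/80-negative cells. These 4 genes were on the low side in CD301b macrophages, but without a test or a depth the ratios of such small values carry no known precision.

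Among the 8 ligand genes, 4 are neighbours. Epgn, Ereg, Areg and Btc lie in that order on chromosome 5 (RefSeq genes on GRCm38.p6), from 91027517 at the start of Epgn to 91402994 at the end of Btc, a span of 375 kb with no other protein-coding RefSeq gene inside it. Ereg (91074617 to 91093649) and Areg (91139599 to 91148432) are 45.9 kb apart. Together these 4 genes summed to 7.06 FPKM in CD301b macrophages and 10.7 FPKM in F4/80-negative cells. Each was the lower in CD301b macrophages, but Ereg and Areg were not called, and Epgn and Btc were not tested. Hbegf (chromosome 18), Tgfa (chromosome 6), Egf (chromosome 3) and Nrg1 (chromosome 8) lie elsewhere. Of these, Hbegf, Tgfa and Egf were also the lower in CD301b macrophages, so the direction was not particular to the neighbours.

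Nrg1, neuregulin 1, a ligand of ERBB3 and ERBB4 that does not bind EGFR, was the only one of the 10 genes with the higher value in CD301b macrophages. It had 4.56 FPKM there and 3.70 FPKM in F4/80-negative cells, a 1.23-fold difference that did not pass the threshold (adjusted p = 0.506, Cuffdiff, from the authors' deposited table). Among the 10 genes, Nrg1 came after Egfr and Hbegf in CD301b macrophages, and after Egfr, Hbegf, Ereg and Areg in F4/80-negative cells. The table holds 1 Nrg1 transcript, over 100 kb of a gene that RefSeq draws over 1080 kb with 12 curated transcripts, so fragments of other Nrg1 forms may be counted in it or missed. Of the 9 RefSeq genes that overlap the locus, 1 (Gm3985) is listed as protein-coding, and it is not stated whether counting used strand.

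The receptor side was led by Egfr, which encodes the EGF receptor itself. Egfr (chromosome 11, 16752203 to 16913907) had 6.91 FPKM in CD301b macrophages and 9.35 FPKM in F4/80-negative cells, 1.35-fold lower in CD301b macrophages. Per length, Egfr was thus 1.27 times the level of Hbegf in CD301b macrophages and 1.52 times in F4/80-negative cells. Erbb2 (chromosome 11, 98412484 to 98437716) had 0.754 FPKM in CD301b macrophages and 0.874 FPKM in F4/80-negative cells, which missed the threshold (adjusted p = 0.757, Cuffdiff, from the authors' deposited table). Its locus overlaps the end of the protein-coding gene Mien1.

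Egfr was measured as 2 transcripts that encode different receptors. NM_207655 encodes the full receptor of 1210 codons, and NM_007912 encodes a truncated form of 655 codons that keeps the ligand-binding part and lacks the kinase. The first 1925 coding bases of both come from the same exons, the last of them at position 16887185 of chromosome 11 (plus strand, GRCm38). From there the truncated form reads on into the next base, whereas the full form continues in an exon that starts at 16889913. The last 30 bases from shared exons are printed in lower case and the first 30 of each transcript's own in capitals (the first capital is alike by letter but comes from different positions), since only fragments that reach this point or lie beyond it tell the forms apart.
NM_207655: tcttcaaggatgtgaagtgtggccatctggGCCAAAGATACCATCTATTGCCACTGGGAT
NM_007912: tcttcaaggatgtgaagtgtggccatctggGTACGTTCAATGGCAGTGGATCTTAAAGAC

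The full-length Egfr transcript had 5.52 FPKM in CD301b macrophages and 7.36 FPKM in F4/80-negative cells. Its unadjusted p was 0.04535 and its adjusted p was 0.174 (Cuffdiff, from the authors' deposited table). The truncated transcript had 1.39 FPKM in CD301b macrophages and 1.99 FPKM in F4/80-negative cells (adjusted p = 0.408, Cuffdiff, from the authors' deposited table). It made up 20.1% of Egfr in CD301b macrophages and 21.3% in F4/80-negative cells. Both forms were thus lower in CD301b macrophages by similar ratios, 1.33-fold for the full-length form and 1.43-fold for the truncated one, neither past the threshold, and the difference between the forms was not tested.

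**Figure D2:**
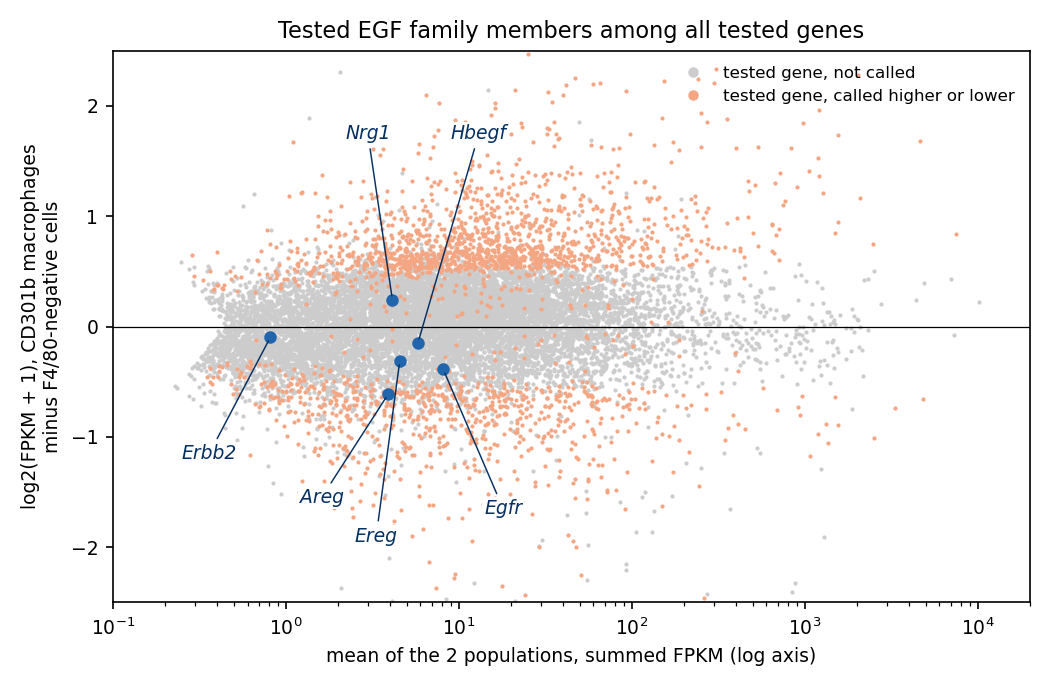
Difference on the log2(FPKM + 1) scale (CD301b macrophages minus F4/80-negative cells) against the mean summed FPKM of the populations (log axis) for all 13039 tested genes, called genes in orange and the 6 tested EGF family genes as blue points. These 6 genes lie between -0.61 (Areg) and 0.24 (Nrg1) and among grey points. The vertical axis leaves out 80 tested genes beyond 2.5 in either direction.

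None of the relatives outside the set was called either. Nrg4, which encodes a short neuregulin that binds ERBB4, had 1.69 FPKM in CD301b macrophages and 0.920 FPKM in F4/80-negative cells, 1.83-fold higher in CD301b macrophages, with an unadjusted p of 0.0265 and an adjusted p of 0.123 (Cuffdiff, from the authors' deposited table). The Nrg4 locus overlaps the protein-coding gene Fbxo22 and that of Nrg2 overlaps Psd2, and it is not stated whether counting used strand. Erbb3, the receptor for neuregulins whose kinase is impaired, had 0.634 FPKM in CD301b macrophages and 0.687 FPKM in F4/80-negative cells (adjusted p = 0.859, Cuffdiff, from the authors' deposited table). Nrg2 had 0.406 FPKM in CD301b macrophages and 0.265 FPKM in F4/80-negative cells, Nrg3 was under 0.01 FPKM in both, and Erbb4 was listed at 0 in both. Cuffdiff did not test these 3.

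Release of the ligands depends on ADAM proteases and their partners. The list of 10 genes taken for this step also held Furin and Timp3, the latter an inhibitor of such proteases. Of the 10, 1 was called higher in CD301b macrophages and 0 lower, close to the 11.0% and 6.20% of all tested genes. The list's median difference was -0.09 (log2), beside 0.05 over all tested genes. The higher gene was Adam9, a membrane metalloprotease able to cleave HB-EGF, at 77.6 FPKM in CD301b macrophages and 50.1 FPKM in F4/80-negative cells (1.55-fold, adjusted p = 0.0125, Cuffdiff, from the authors' deposited table). Adam17, the main protease that sheds amphiregulin, epiregulin and HB-EGF, is named here after its values were seen. Its summed level was 49.7 FPKM in CD301b macrophages and 44.1 FPKM in F4/80-negative cells. Its main transcript had 45.6 FPKM in CD301b macrophages and 34.9 FPKM in F4/80-negative cells (adjusted p = 0.227, Cuffdiff, from the authors' deposited table). A minor transcript had 0.726 FPKM in CD301b macrophages and 1.74 FPKM in F4/80-negative cells and was called lower (adjusted p = 0.0134, Cuffdiff, from the authors' deposited table), so the gene was counted in neither direction. Per length, Adam9 and Adam17 both stood above every ligand gene in both populations.

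Membrane HB-EGF also acts on adjacent cells in complexes with tetraspanins, integrins and CD44, and of 6 such genes, all tested, 1 was called lower in CD301b macrophages and 0 higher, that is 16.7% lower beside 6.20% of all tested genes. The lower gene was Cd9, a tetraspanin that binds the HB-EGF precursor and strengthens its action on neighbouring cells. It had 133 FPKM in CD301b macrophages and 295 FPKM in F4/80-negative cells, 2.21-fold lower in CD301b macrophages (adjusted p = 0.000999, the smallest the authors' deposited table allows, Cuffdiff). The list's median difference was -0.08 (log2), beside 0.05 over all tested genes.

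Downstream of the receptors, 16 genes of adaptors and the Ras-MAPK relay were all tested, with 2 higher in CD301b macrophages and 1 lower, that is 12.5% and 6.25%, near the 11.0% and 6.20% of all tested genes. Nras, a Ras GTPase, had 26.9 FPKM in CD301b macrophages and 14.4 FPKM in F4/80-negative cells (1.87-fold higher, adjusted p = 0.000999), and Gab2, a docking protein of receptor kinases, had 25.9 FPKM in CD301b macrophages and 17.0 FPKM in F4/80-negative cells (1.53-fold higher, adjusted p = 0.0143, Cuffdiff, from the authors' deposited table). The lower gene was Shc1, an adaptor that binds phosphorylated receptors. Its call rested on a minor transcript with 2.23 FPKM in CD301b macrophages and 4.82 FPKM in F4/80-negative cells (adjusted p = 0.00931, Cuffdiff, from the authors' deposited table), while the main one had 24.9 FPKM in CD301b macrophages and 25.6 FPKM in F4/80-negative cells. The list's median difference was 0.18 (log2).

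Inhibitors and feedback regulators of the receptors were called in both directions. Of 17 genes, all tested, 3 were higher in CD301b macrophages and 5 lower, or 17.6% and 29.4%, beside 11.0% and 6.20% of all tested genes. Their median difference was -0.03 (log2). No test of the list was made.

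The higher genes were Dusp6, Spred1 and Cbl. Dusp6, a phosphatase that switches off ERK and is itself induced by ERK signalling, had 59.8 FPKM in CD301b macrophages and 22.8 FPKM in F4/80-negative cells, a 2.62-fold difference (adjusted p = 0.000999, Cuffdiff, from the authors' deposited table). Spred1, an inhibitor of Ras activation, had 24.4 FPKM in CD301b macrophages and 14.5 FPKM in F4/80-negative cells (1.68-fold higher, adjusted p = 0.00572, Cuffdiff, from the authors' deposited table). Cbl, the ubiquitin ligase that sends activated EGFR to degradation, had 21.4 FPKM in CD301b macrophages and 14.3 FPKM in F4/80-negative cells (adjusted p = 0.0477, Cuffdiff, from the authors' deposited table).

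The lower genes were Spry1, Dusp5, Errfi1, Lrig1 and Lrig3. Spry1, a feedback inhibitor of receptor kinases, had 2.76 FPKM in CD301b macrophages and 6.87 FPKM in F4/80-negative cells, 2.49-fold lower in CD301b macrophages (adjusted p = 0.00887, Cuffdiff, from the authors' deposited table). Dusp5, a nuclear ERK phosphatase, had 37.2 FPKM in CD301b macrophages and 60.5 FPKM in F4/80-negative cells (1.63-fold lower, adjusted p = 0.0162, Cuffdiff, from the authors' deposited table). The other 3, and Cbl above, are named after their values were seen. Errfi1, which encodes MIG6, an inhibitor that binds the EGFR kinase, had 34.7 FPKM in CD301b macrophages and 51.1 FPKM in F4/80-negative cells (adjusted p = 0.0431, Cuffdiff, from the authors' deposited table). Lrig1, which promotes loss of ERBB receptors from the membrane, had 2.73 FPKM in CD301b macrophages and 4.98 FPKM in F4/80-negative cells (adjusted p = 0.00974, Cuffdiff, from the authors' deposited table). Lrig3, of the same family, had 2.90 FPKM in CD301b macrophages and 4.78 FPKM in F4/80-negative cells (adjusted p = 0.0303, Cuffdiff, from the authors' deposited table). Lrig2, also named after its values were seen, went the other way without a call. It had 3.79 FPKM in CD301b macrophages and 2.55 FPKM in F4/80-negative cells (adjusted p = 0.0524, Cuffdiff, from the authors' deposited table).

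**Figure D3:**
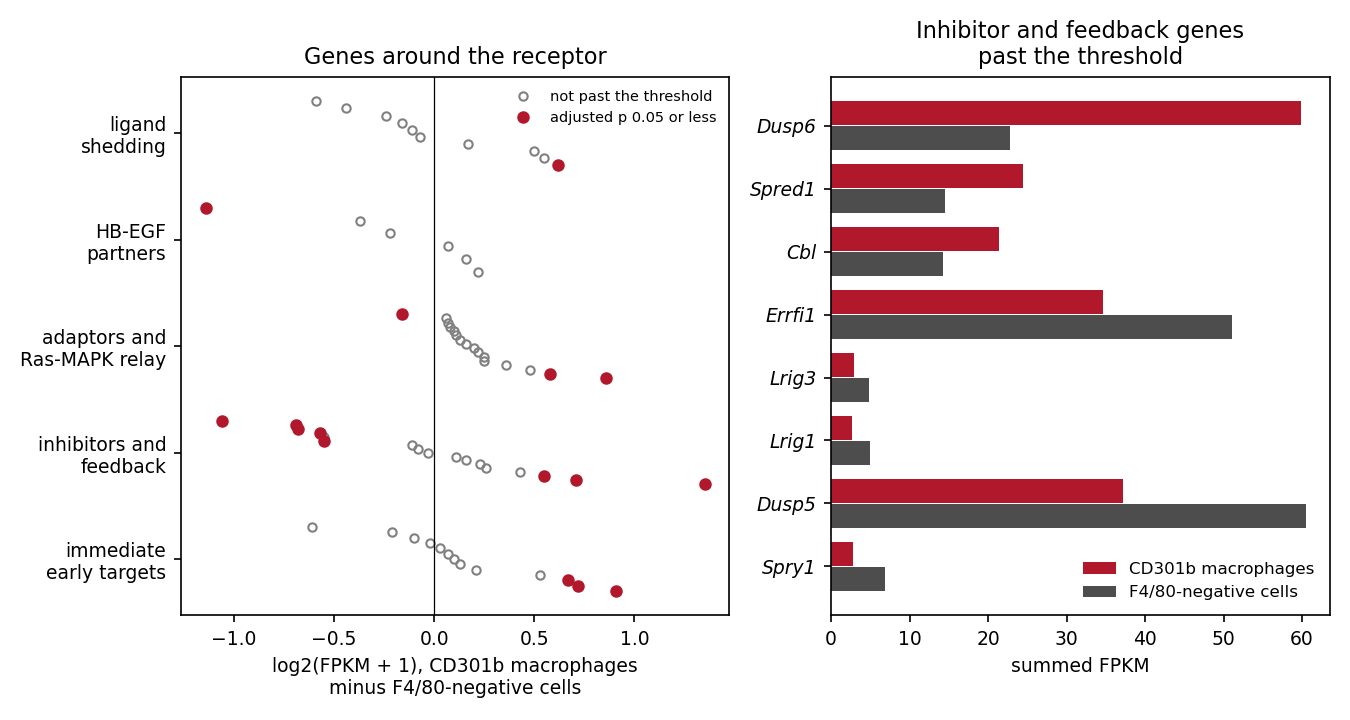
Left, difference on the log2(FPKM + 1) scale (CD301b macrophages minus F4/80-negative cells) for each gene of 5 lists around the receptors, with filled red points for called genes and open grey points for the others. Right, summed FPKM of the 8 called inhibitor and feedback genes, CD301b macrophages in red above F4/80-negative cells in grey, from Dusp6 (59.8 FPKM in CD301b macrophages and 22.8 FPKM in F4/80-negative cells) at the top to Spry1 (2.76 FPKM in CD301b macrophages and 6.87 FPKM in F4/80-negative cells) at the bottom.

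Immediate early genes are induced within minutes by growth factor receptors and many other stimuli. Of 13 genes listed under this heading, which include the slower Ccnd1, 3 were called higher in CD301b macrophages and 0 lower. That is 23.1% higher beside 11.0% of all tested genes. Egr1, a zinc finger factor, had 263 FPKM in CD301b macrophages and 140 FPKM in F4/80-negative cells (1.88-fold, adjusted p = 0.000999, Cuffdiff, from the authors' deposited table). Fos, an AP-1 subunit, had 815 FPKM in CD301b macrophages and 512 FPKM in F4/80-negative cells (1.59-fold, adjusted p = 0.0159, Cuffdiff, from the authors' deposited table). Jun, its partner in AP-1, had 120 FPKM in CD301b macrophages and 72.8 FPKM in F4/80-negative cells (1.65-fold, adjusted p = 0.00258, Cuffdiff, from the authors' deposited table). The list's median difference was 0.10 (log2). Such genes also respond to cell isolation, and the part of sorting in these values was not tested.

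The sorted populations were checked by their markers. Of 7 macrophage markers, 7 were called higher in CD301b macrophages, beside 11.0% of all tested genes. Among them was Adgre1 (557 FPKM in CD301b macrophages and 151 FPKM in F4/80-negative cells). It encodes F4/80, by which the other population is named, and is thus no independent check of the sort. Mgl2, which encodes CD301b, was called lower (49.2 FPKM in CD301b macrophages and 103 FPKM in F4/80-negative cells). Transcripts of stromal and epithelial cells were present in both populations although the series names them as immune cells. No marker of the lists was listed at 0, Ly6g and Trac were not analysed here, and fewer cells of a type and less RNA per cell cannot be told apart in such samples.

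Markers of several other cell types known to make or use these ligands had, in most cases, the lower values in CD301b macrophages. So did 9 of the 10 family genes. Over all genes tested, 6.20% were called lower and 44.7% were lower by summed FPKM, and the counts of these short lists are read beside those shares. Fibroblast markers were the lower in CD301b macrophages in 7 of 7 cases by summed FPKM, with 1 called lower (Lum). Their sum was 4210 FPKM in CD301b macrophages and 6210 FPKM in F4/80-negative cells, a ratio of 0.678. Keratinocyte markers were likewise the lower in 7 of 7 cases, with 1 called (Cdh1), and summed to 158 FPKM in CD301b macrophages and 204 FPKM in F4/80-negative cells, a ratio of 0.773. Mast cell and basophil markers were the lower in 8 of 8 cases, with 5 called, and summed to 105 FPKM in CD301b macrophages and 165 FPKM in F4/80-negative cells, a ratio of 0.638. That ratio rested largely on Hdc, which encodes histidine decarboxylase and was not called, with 84.9 FPKM in CD301b macrophages and 108 FPKM in F4/80-negative cells, while the 5 called genes stood at 0.199 (Kit) to 0.387 (Cma1) times their level in F4/80-negative cells. T cell and innate lymphoid markers were the lower in 6 of 7 cases, Cd3d being the exception, and summed to 56.0 FPKM in CD301b macrophages and 74.2 FPKM in F4/80-negative cells, with 1 of 5 tested genes called lower (Il7r) and Cd3e, Cd3d and Gata3 under 1 FPKM in both. Dendritic and Langerhans cell markers were called lower in 6 of 7 cases (57.8 FPKM in CD301b macrophages and 231 FPKM in F4/80-negative cells in sum) and endothelial markers in 0 of 5 (49.9 FPKM in CD301b macrophages and 53.8 FPKM in F4/80-negative cells). Neutrophil markers were mixed, with 3 of 6 called lower and the other 3 (Cxcr2, Camp and Ltf) the higher in CD301b macrophages without a call, and a median difference of 0.01 (log2). Their sum of 2130 FPKM in CD301b macrophages and 3850 FPKM in F4/80-negative cells was carried by S100a8 and S100a9, and the call of Csf3r rested on a minor transcript (3.53 FPKM in CD301b macrophages and 7.68 FPKM in F4/80-negative cells). Ratios of the other sums were 0.755 for T cell and innate lymphoid, 0.25 for dendritic and Langerhans cell, 0.928 for endothelial and 0.553 for neutrophil markers. The ratios of these lists, from 0.25 to 0.928, span all 9 family genes that were lower in CD301b macrophages, from 0.354 (Epgn) to 0.887 (Hbegf). That Areg, at 0.585, and Egfr, at 0.739, lay among them therefore tells nothing of their source. No family gene was matched to a list. The part of these cells in the levels of Areg, Egfr and the other family genes was not tested.

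**Figure D4:**
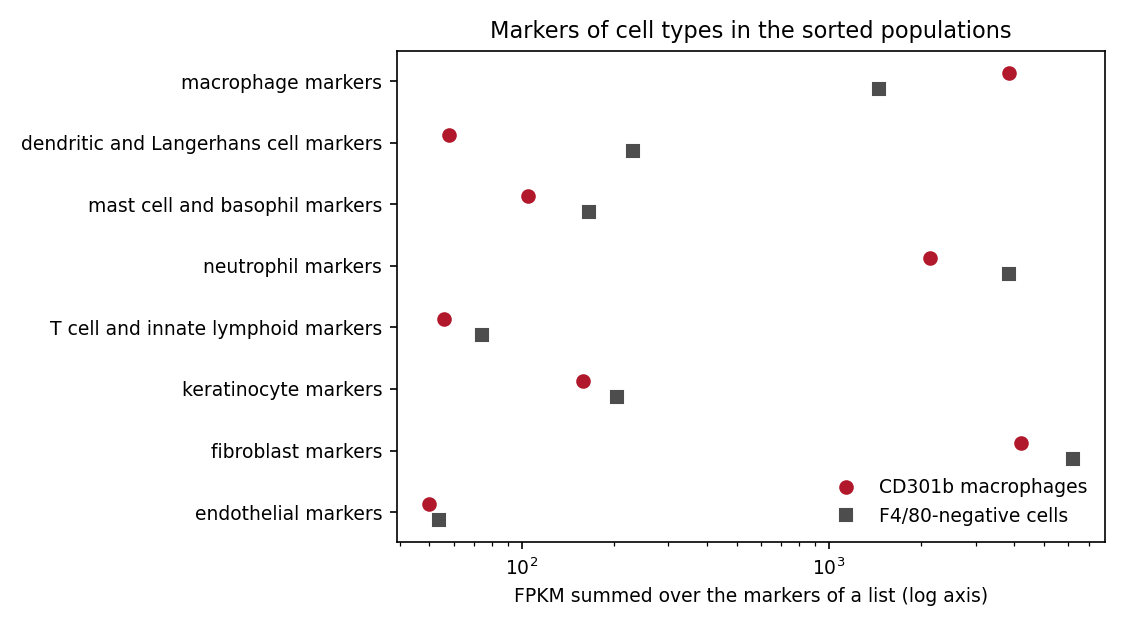
FPKM summed over the markers of each cell type (log axis), with red circles for CD301b macrophages and grey squares for F4/80-negative cells. Macrophage markers were the higher in CD301b macrophages (3860 FPKM, against 1450 FPKM in F4/80-negative cells), and the sums of the other 7 lists were the lower there.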

How the data were processed

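RNA of 2 libraries of CD301b macrophages and 2 of F4/80-negative cells was sequenced after an Illumina TruSeq mRNA preparation, per the labels' protocols. Per the submitters' processing notes, the build was mm9 and the tools were Cuffdiff 2.0.2 and TopHat2 2.0.2. Counting settings, strand included, are not stated there. The authors deposited 1 table with 1 FPKM per transcript and population and an unadjusted p-value per transcript, per the file headers. Its lower limit is 5e-05. The sources used here do not tell how libraries were combined, so no test was run over libraries and no replicate was left out. A Benjamini-Hochberg adjustment over the 16921 tested transcripts matched all 2408 deposited calls. The deposited fold column holds spreadsheet errors and was not used.

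RefSeq GRCm38.p6 holds 97.1% of the table's accessions, and for 99.2% of those the gene overlaps the locus in the table, whose coordinates therefore follow GRCm38. FPKM were summed by symbol and differences taken as log2(FPKM + 1). Symbols turned into dates (56 transcripts) were replaced through their accession. The call rule was run on simulated data with changed genes planted far past the threshold. That run checks the code and says nothing of the calls in these data.

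The members, lists and tests were chosen with earlier results of these data known. The lists covered other family genes, ligand shedding, partners of HB-EGF, adaptors and Ras-MAPK relay, inhibitors and feedback, immediate early targets, and markers of macrophages, dendritic, mast, neutrophil, T and innate lymphoid cells, keratinocytes, fibroblasts and endothelium. Another marker list is not reported here. Named genes were all family genes and, per list, up to 4 called genes of largest difference at 5 FPKM or more. The window of 2 to 10 FPKM used to describe calls near the Areg level was chosen after seeing the data. No protein sequences were used here. Python 3.11.15, pandas 2.3.3, numpy 2.4.6 and matplotlib 3.10.9 were used.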

Additional observations from a re-analysis of the deposited data

How the results depend on the processing

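The count of family genes called stayed at 0 higher and 0 lower with genes at 1 FPKM or more and the adjustment redone. Areg then had an adjusted p of 0.0747, computed here from Cuffdiff's p-values in the authors' deposited table. The count was also 0 and 0 with an adjusted p of 0.01 and with the most abundant transcript alone. Neither of these settings could have added a call, since no family transcript passed an adjusted p of 0.05. At an unadjusted p of 0.05, 2 were lower and 0 higher. All 50 alternative differences (10 genes, 5 settings of pseudocount, transcript choice or scaling) kept their direction, but most could not have done otherwise. A pseudocount cannot reverse a direction, and for a gene with 1 transcript the choice of transcript changes nothing. Scaling, which divided CD301b macrophage values by 1.07, could have reversed Nrg1 alone. The median difference of the 10 genes was -0.33 with a pseudocount of 0.1, -0.31 over genes at 1 FPKM or more, and -0.18 after scaling to the median ratio. The first shift follows from the pseudocount's weight in low genes. At an adjusted p of 0.01, 0 shedding genes and 1 relay gene were higher, 2 inhibitor and feedback genes were lower, and 848 genes of the table were higher and 461 lower. At an unadjusted p of 0.05 those were 2539 and 1640. No paired analysis was possible because the table gives 1 value per population, and leaving out a replicate was not run for the same reason. Depth is unknown, so the precision of genes under 1 FPKM cannot be stated.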
